A study of Caenorhabditis elegans with 6 samples.

Results

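Small RNAs that survived sodium periodate were compared between the oxidized *eggd-1* library and the oxidized wild-type (N2) library, 2 of the 6 small RNA libraries of the study and 1 per genotype. Members were the features with at least 10 counts in one of these libraries: 11398 of 13994 piRNA loci, 170 of 8075 genes with 26G-RNAs, 3216 of 19781 genes with 22G-RNAs, 109 of 353 miRNA entries and 64 of 167 transposon consensus sequences. Both libraries came from whole adult *C. elegans* of a synchronized population grown at 20 °C, collected as a large pool of worms per sample. One carried an *eggd-1* null allele and the other was N2, and the RNA of both was oxidized before cloning. The other libraries were untreated: 2 of the *eggd-1* null and 2 of a control strain labelled *pgl-1::RFP*, in which a germ granule component bears a fluorescent tag. The control strain of the untreated comparison is therefore not the N2 of the oxidized one. The labels do not say whether replicates were separate cultures, and a p-value from the untreated libraries measures the spread between those samples only. RNA of whole animals was sequenced, and a larger share of cells that make a small RNA cannot be told apart from more of it per cell.

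EGGD-1 is a LOTUS domain protein of the germ granules that lie around germline nuclei. Small RNAs that carry a methyl group on the 2′ oxygen of the last ribose survive treatment with periodate and can still be joined to a 3′ adapter. Those with a free ribose end are attacked by the reagent and largely drop out of the library. In *C. elegans* the methyltransferase HENN-1 adds this group to piRNAs, which are bound by the Piwi protein PRG-1, and to the 26G-RNAs bound by the Argonaute ERGO-1. The 26G-RNAs bound by ALG-3 and ALG-4 in the male germ line, the 22G-RNAs and most miRNAs lack it. piRNA loci lie mostly in a pair of clusters on chromosome IV, and many of them are active mainly in the male or in the female germ line.

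Depth was 19457486 genome-mapped reads in oxidized *eggd-1* and 27109317 in oxidized N2, and the small RNA classes took 88.4% of them in each library, against between 62.2% and 62.7% in the untreated libraries. Values are RPM, that is counts scaled to the genome-mapped reads of a library, and 3 counts, the limit that a count of 0 allows, corresponded to 0.154 RPM in oxidized *eggd-1* and 0.111 RPM in oxidized N2. A fold is the ratio of RPM after 0.5 counts were added to each library, *eggd-1* over N2, and differences of 2-fold or more were counted for every class but 22G-RNAs, for which the limit was 4-fold. Since each genotype had 1 oxidized library, there is no test and no replicate error for any oxidized ratio, and the 95% intervals given are exact binomial ones that cover counting error only. The *eggd-1* label was checked on the 22G-RNAs of *eggd-1* itself (chromosome III, 4793086 to 4795423, named *mip-1* in Ensembl). They had 0.366 and 0.469 RPM in the untreated *eggd-1* libraries, against 78.1 and 81.1 RPM in the untreated control libraries. In the oxidized pair they had 5 counts (0.257 RPM) in *eggd-1* and 29 counts (1.07 RPM) in N2, and the interval of the ratio ran from 0.0726 to 0.628. Both oxidized values were low, and the *eggd-1* library was the lower one. The gap was smaller than in the untreated libraries, so the oxidized pair is a weaker check of the label.

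The plot of summed levels shows how each class of small RNA stood in *eggd-1* relative to control after oxidation and without it. piRNAs made up most of both oxidized libraries, with 86.43% of genome-mapped reads in *eggd-1* and 86.11% in N2, a ratio of summed RPM of 1.00. In the untreated libraries the ratio was 1.14, between 1.08 and 1.20 over the 4 pairs of libraries. 26G-RNAs had 6040 RPM in oxidized *eggd-1* and 9951 RPM in oxidized N2, a ratio of 0.607 with an interval of 0.603 to 0.611. 22G-RNAs had 10549 and 10694 RPM in oxidized *eggd-1* and N2, a ratio of 0.986. miRNAs had 2748 RPM in oxidized *eggd-1* and 1831 RPM in oxidized N2, 1.50 times as much. The untreated miRNA ratio was 1.06, between 1.01 and 1.11 over the 4 pairs, and oxidized over untreated miRNA RPM was 0.0158 in *eggd-1* and 0.0112 for N2 over the untreated control. The oxidized *eggd-1* library thus held fewer 26G-RNA reads and more miRNA reads than the N2 library. Since piRNAs filled most of both oxidized libraries, their RPM ratio could hardly leave 1 and is no measure of equal piRNA amounts.

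**Figure D1:**
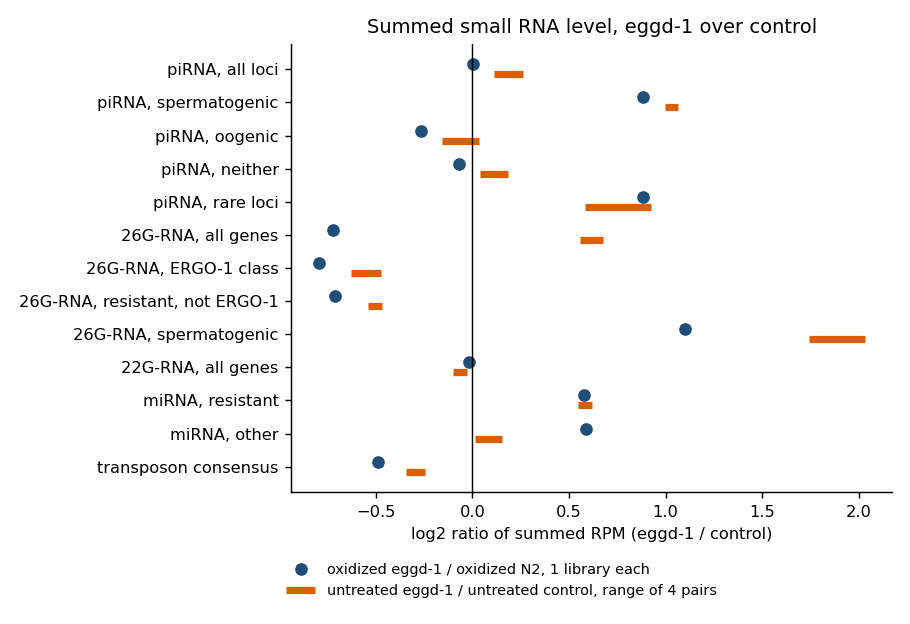
Log2 ratio of summed RPM, eggd-1 over control, for classes of small RNA (rows). Points are the oxidized pair of libraries and bars span the lowest to the highest of the 4 pairs of untreated libraries. Spermatogenic piRNAs lie to the right of 0 in both (1.85 times in the oxidized pair), all 26G-RNAs lie on opposite sides of 0 (0.607 oxidized, 1.53 untreated), and ERGO-1 class 26G-RNAs lie to the left in both.

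The piRNA reads were distributed differently over the loci of the 2 libraries. Of the 11398 measurable loci, 4104 (36.0%) exceeded N2 by 2-fold or more in oxidized *eggd-1* and 143 (1.25%) were lower by that much, and the median log2 ratio was 0.58 with quartiles of −0.01 and 1.29. As a share of all piRNA reads the counts were 4085 and 147, and with TMM scaling, which sets the typical locus equal and lowered every log2 ratio by 0.54, they were 1842 and 735. The 1000 loci with the most reads took 69.9% of the piRNA reads in oxidized *eggd-1* and 77.7% in oxidized N2. Without oxidation they took 71.9% and 74.7% in *eggd-1*, against 78.3% and 77.7% in control. piRNA reads were thus less concentrated on the leading loci in *eggd-1* with and without oxidation, and the median locus was higher in oxidized *eggd-1*.

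To set these folds against the spread between replicates, the same rule was applied to the untreated replicates of one genotype. In all, 37.3% of measurable piRNA loci were at least 2-fold apart in the oxidized pair, against 6.49% between the *eggd-1* replicates and 6.17% between the control replicates. Where the higher count of a locus was 10 to under 100, the shares were 48.7% in the oxidized pair, 10.1% between *eggd-1* replicates and 9.62% between control replicates. Where it was 100 to under 1000 they were 39.1%, 0.232% and 0.352%, and at 1000 or more they were 18.6%, 0 and 0. The oxidized pair differed by more than untreated replicates of like count at every depth. How far apart 2 oxidized libraries of 1 genotype would lie was not measured.

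**Figure D2:**
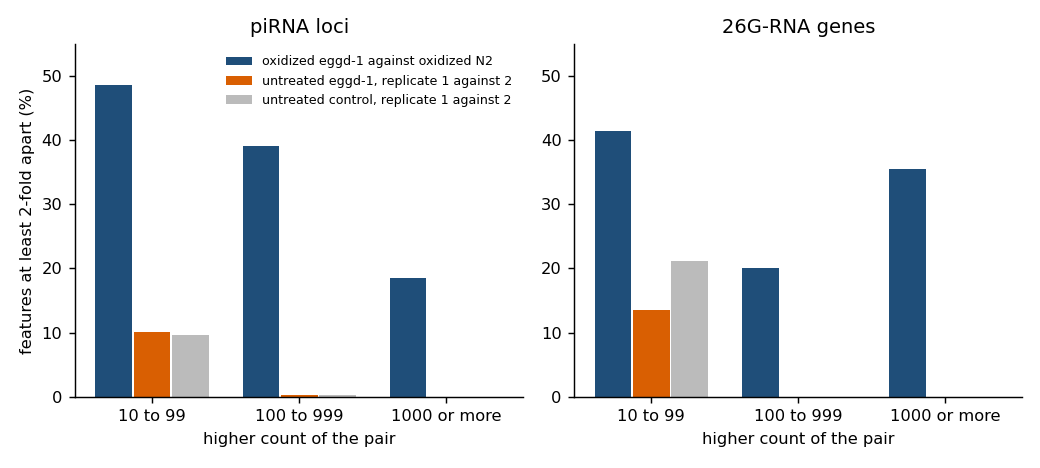
Percent of piRNA loci (left) and 26G-RNA genes (right) at least 2-fold apart between single libraries, by the higher of the 2 counts. Bars are the oxidized eggd-1 against oxidized N2 pair and the replicate pairs of untreated eggd-1 and untreated control. For piRNA loci with 100 to under 1000 counts the bars stand at 39.1%, 0.232% and 0.352%, and no 26G-RNA gene reached 1000 counts in the untreated eggd-1 replicates.

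The difference lay mainly with the loci that the files assign to spermatogenesis. The 3750 spermatogenic loci summed to 164480 RPM in oxidized *eggd-1* and 89064 RPM in oxidized N2, 1.85 times as much, and took 19.0% and 10.3% of the piRNA reads. Without oxidation they took 18.9% and 18.2% in *eggd-1*, against 10.5% and 10.2% in control, so the oxidized shares stood close to the untreated ones of each genotype. Of 3374 measurable spermatogenic loci 2353 (69.7%) were higher in oxidized *eggd-1* by 2-fold or more and 4 were lower, with a median log2 ratio of 1.27, which stayed above 0 with TMM scaling.

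Oogenic loci were lower in sum in the oxidized pair, a ratio tied to that of the other loci because piRNAs filled most of each library. The 1724 oogenic loci had 246640 RPM in oxidized *eggd-1* and 297060 RPM in oxidized N2, a ratio of 0.830, and took 28.5% and 34.5% of piRNA reads, against untreated shares of 28.0% and 28.5% in *eggd-1* and 33.4% and 33.8% in control. Their untreated RPM ratio was 0.958, and the 4 pairs of libraries, at 0.896 to 1.02, lay on both sides of 1. Of 1615 measurable oogenic loci 33 were at least 2-fold higher and 26 lower, and their median log2 ratio was −0.11. The 8520 loci of neither class had 453200 RPM in oxidized *eggd-1* and 475020 RPM in oxidized N2, a ratio of 0.954. Their sum was lower and their median locus was higher: of 6409 measurable loci 1718 were at least 2-fold higher and 113 lower, with a median log2 ratio of 0.37, which the TMM shift of 0.54 turned below 0.

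**Figure D3:**
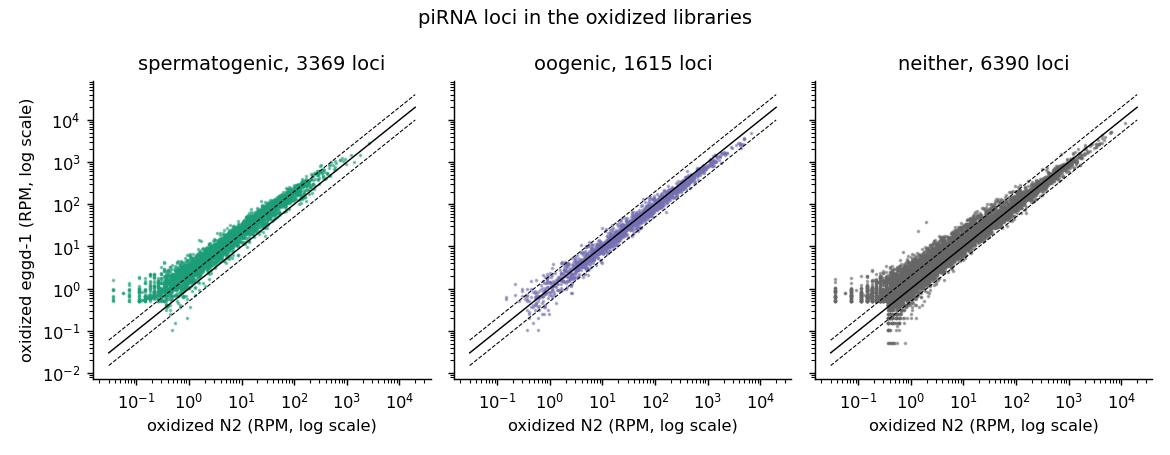
RPM of piRNA loci in oxidized eggd-1 (vertical axis) and oxidized N2 (horizontal axis), on log scales, for spermatogenic, oogenic and other loci with at least 10 counts in one library and a count in both. The solid line marks equal values and the dashed lines a 2-fold difference; most spermatogenic loci lie above equality (median log2 ratio 1.27), oogenic loci lie along it (−0.11), and the other loci leave it upwards at low RPM.

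The loci with the most reads in oxidized *eggd-1* were a little lower there than in N2. 21ur-3730 (chromosome IV, 14301789 to 14301809, plus strand) had 8624 RPM in oxidized *eggd-1* and 11852 RPM in oxidized N2, a fold of 0.728. 21ur-4572, 21ur-2446, 21ur-3375 and 21ur-739 followed, with between 4789 and 5223 RPM in oxidized *eggd-1* and between 6093 and 6591 RPM in oxidized N2. All 5 were lower in the oxidized *eggd-1* library, with folds of 0.727 to 0.833. Their untreated log2 fold changes lay between −0.32 and 0.24 and none passed edgeR's quasi-likelihood test (adjusted p between 0.21 and 0.81).

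Among loci with at least 100 counts, the largest ratio belonged to 21ur-11926 (chromosome IV, 15228432 to 15228452, minus strand), which had 760 counts in oxidized *eggd-1* and 53.5 counts in oxidized N2, a fold of 19.6. 21ur-6790, which starts 1 base away on the same strand and overlaps it, had 441 and 36.5 counts, a fold of 16.6. Since reads that match overlapping features were divided among them, these 2 loci are not separate observations. Their untreated values did not separate the genotypes. 21ur-11926 had 39.5 and 44.5 counts in the untreated *eggd-1* libraries, against 3 and 77 counts in the control libraries. 21ur-6790 had 23.5 and 26.5 counts in untreated *eggd-1*, against 1 and 46 counts in control. Of 4754 loci with at least 40 control counts, these 2 were the only ones at least 4-fold apart between the control replicates, so their untreated direction depends on which control replicate is taken.

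The next 3 loci separated the genotypes in every library. 21ur-10542 had 147 counts in oxidized *eggd-1* and 19 in oxidized N2, and 15 and 8 counts in untreated *eggd-1*, against 3 and 4 in control. 21ur-7226 had 272 counts in oxidized *eggd-1* and 43 in oxidized N2, and its untreated log2 fold change was 2.78 (SE 0.51, edgeR quasi-likelihood test, adjusted p = 1.26e-05). 21ur-2358 had 261 counts in oxidized *eggd-1* and 47 in oxidized N2, and its untreated log2 fold change was 1.79 (SE 0.37, edgeR, adjusted p = 8.12e-05). Folds of the 3 in the oxidized pair were 10.5, 8.73 and 7.67, all with intervals above 5.

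On the lower side folds were smaller. The lowest among loci with at least 100 counts was that of 21ur-569, with 1.62 RPM in oxidized *eggd-1* and 4.24 RPM in oxidized N2 (0.386). 21ur-2400 (chromosome IV, 14753357 to 14753377, plus strand) had 1216 counts in oxidized *eggd-1* and 4225 in oxidized N2, a fold of 0.401. Without oxidation the same locus had 21 and 45 counts in *eggd-1*, against 25 and 15 in control, and a log2 fold change of 1.09 (SE 0.37, edgeR, adjusted p = 0.014), opposite to the oxidized pair. 21ur-3036 had 1308 and 4428 counts in oxidized *eggd-1* and N2 (0.412), and its untreated log2 fold change of −0.60 pointed the same way (SE 0.21, edgeR, adjusted p = 0.017). 21ur-2205 and 21ur-12092, both oogenic like 21ur-3036, had folds of 0.406 and 0.414.

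The untreated libraries gave a replicated check of the loci that differed after oxidation. Of the 4104 loci at least 2-fold higher in oxidized *eggd-1*, 1889 had enough untreated reads to be tested with edgeR, and 1420 of these (75.2%) passed with a 2-fold or larger increase in untreated *eggd-1* (adjusted p below 0.05), against 26.9% of all 6529 loci tested. By class, 1077 of 1384 spermatogenic members were called (77.8%, against 64.2% of all spermatogenic loci tested) and 341 of 496 members of neither class (68.8%, against 14.1%). Of only 9 oogenic members 2 were called (22.2%, against 0.878%). Of the 143 loci that were lower after oxidation only 14 could be tested, and 1 was called lower, against 0.444% of all loci tested, and 1 higher. With TMM scaling over the piRNA loci 763 of the 1889 were called, against 13.3% of all loci, and with DESeq2 386, against 6.62%. Across the 4512 loci with at least 100 untreated counts the log2 ratio of the oxidized pair and that of the untreated groups had a Pearson correlation of 0.84 and a Spearman correlation of 0.81, a description across loci that share libraries and depth.

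Rarer loci had higher ratios. Loci were grouped by their counts summed over the 4 untreated libraries, which the oxidized ratio does not use. The minimum of 10 counts does use the oxidized libraries, and in the lowest group it favours loci that differ. Of the 2388 loci in that group, 725 passed it through oxidized *eggd-1* alone and 255 through oxidized N2 alone. Over all measurable loci these numbers were 773 and 266. The median log2 ratio was 0.97 for loci with under 10 untreated counts, 0.76 for 10 to under 100, 0.39 for 100 to under 1000 and −0.06 for 1000 or more. The share at least 2-fold higher was 49.2%, 41.4%, 29.9% and 7.17%. Within the spermatogenic loci the medians were 1.47, 1.33, 1.21 and 0.90 in the same order of abundance, and within the loci of neither class 0.83, 0.51, 0.19 and −0.07. Oogenic loci had medians of 0.02, −0.04, −0.06 and −0.21. In the oxidized pair the medians followed the order by abundance in each of the 3 classes. At any abundance spermatogenic loci had the highest median and oogenic loci the lowest. The share of spermatogenic loci at least 2-fold higher did not follow the order, at 69.3%, 74.5%, 69.8% and 37.3%. In the other classes that share fell with abundance. The untreated medians of the same loci did not follow the order by abundance in every class. With 1 count added to each genotype's sum they were 0.83, 1.15, 1.19 and 1.05 for spermatogenic loci and 0.13, −0.10, −0.07 and −0.10 for oogenic loci. For loci of neither class they were 0.39, 0.39, 0.20 and 0.08. The first median of each class, from sums under 10 counts, is partly set by the added count and the unequal depths. Without it the spermatogenic and oogenic medians still did not follow the order.

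Position on chromosome IV went with the ratio as well. Of 1939 measurable loci in the smaller cluster, between positions 4767704 and 6998272 of WBcel235, 58.8% were at least 2-fold higher in oxidized *eggd-1* (median log2 ratio 1.19). Of 9222 loci in the larger cluster, between 13543927 and 17489571, 30.7% were (median 0.40, below 0 with TMM scaling), and of 237 loci elsewhere in the genome 57.0% were (median 1.09). Beside the 36.0% over all loci, the smaller cluster and the scattered loci held more than their part. The clusters differed within each class: 84.9% against 65.8% of spermatogenic loci, 10.3% against 1.22% of oogenic loci and 49.2% against 20.9% of loci of neither class were at least 2-fold higher. They also differed at like abundance, for instance in loci of neither class with 100 to under 1000 untreated counts, where the medians were 0.68 in the smaller cluster (253 loci) and 0.10 in the larger one (1328 loci). Without oxidation edgeR called 425 of 848 loci of the smaller cluster higher in *eggd-1* (50.1%) and 1309 of 5635 of the larger one (23.2%), beside the 26.9% over all loci tested.

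**Figure D4:**
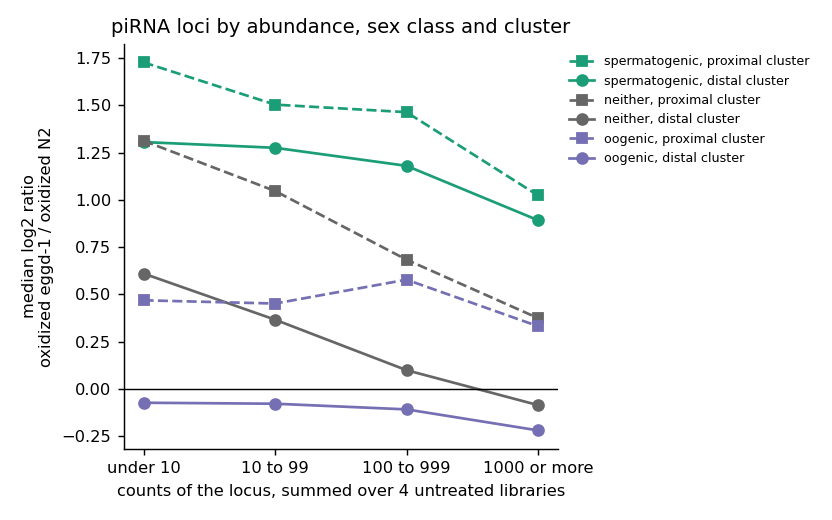
Median log2 ratio of piRNA loci, oxidized eggd-1 over oxidized N2, by the counts of a locus summed over the 4 untreated libraries. Colours are the sex classes of the files; squares and dashed lines are the smaller cluster of chromosome IV (proximal), circles and solid lines the larger one (distal). In every class the smaller proximal cluster lies above the distal one, and medians of spermatogenic and other loci are lowest in the most abundant group, with 15 to 28 loci at 1000 or more counts in the proximal cluster.

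Oxidation brought loci into range that the untreated libraries could not measure. Of the 13994 piRNA loci 4958 had under 10 counts summed over the 4 untreated libraries, and 2388 of these (48.2%) had at least 10 counts in an oxidized library. Together these 2388 loci had 54218 counts (2787 RPM) in oxidized *eggd-1* and 40960 counts (1511 RPM) in oxidized N2. Untreated, they had 151 and 124 RPM in *eggd-1*, against 79.3 and 83.8 RPM in control. In oxidized *eggd-1* 1176 of them were at least 2-fold higher and 104 lower, and with TMM scaling 724 and 239. With 10 counts required in both libraries the numbers were 504 and 10, and with the fold rule on the bound of the interval 329 and 2. Over all measurable piRNA loci, 773 reached 10 counts in the shallower *eggd-1* library alone and 266 in N2 alone. Rare loci were 725 and 255 of these, so the tilt over all loci was almost wholly that of rare loci.

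By class, 438 of 632 rare spermatogenic loci were at least 2-fold higher and 4 lower (median 1.47), 726 of 1634 rare loci of neither class were higher and 87 lower (median 0.83), and 12 of 122 rare oogenic loci were higher and 13 lower (median 0.02). A further subset of 105 loci had no count in any untreated library. Of these 59 were at least 2-fold higher in oxidized *eggd-1* and 13 lower, and their highest counts were 34 in *eggd-1* and 27 in N2. A locus had to reach 10 counts in one oxidized library to be included, which favours loci that differ. The 167 piRNA loci just inside that limit, with a higher count of 10 to under 11, had a median log2 ratio of 0.96, and the 170 just outside it, at 9 to under 10, had 0.82.

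The rare loci with the most reads were the following. 21ur-12548, in the smaller cluster (4867440 to 4867460, minus strand), had 249 counts in oxidized *eggd-1* and 196 in oxidized N2, a fold of 1.77 (interval 1.46 to 2.15), while its untreated counts were 3 and 4 in *eggd-1* and 0 and 1 in control. 21ur-9093, in the same cluster, had 114 counts in oxidized *eggd-1* and 43 in oxidized N2, a fold of 3.67 (interval 2.58 to 5.38). 21ur-3524, 21ur-6960 and 21ur-5113 had between 108 and 109 counts in oxidized *eggd-1* and between 50 and 53.5 in oxidized N2, with folds of 2.81 to 3.02. Those with the most reads in N2 included 21ur-8444 with 62 counts in *eggd-1* and 103 in N2, 21ur-10144 with 55 and 93, 21ur-9122 with 51 and 92, and 21ur-10143 with 59.5 and 86. These loci were picked by their reads in one library or the other, which shapes their folds.

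26G-RNAs were fewer in oxidized *eggd-1*, and the lower reads were those that resisted oxidation. Of 170 measurable genes 45 (26.5%) were lower in oxidized *eggd-1* by 2-fold or more and 11 (6.47%) were higher, with a median log2 ratio of −0.54. Between untreated replicates 12.7% of measurable genes were 2-fold apart in *eggd-1* and 19.3% in control, against 32.9% in the oxidized pair. Of genes with 100 to under 1000 counts, 0 of 65 were 2-fold apart between untreated *eggd-1* replicates and 0 of 39 between control replicates. In the oxidized pair 11 of 55 were, all of them lower in *eggd-1*. All 16 genes of 45 that were 2-fold apart at 1000 counts or more were also lower in *eggd-1*. Read as a share of each library's 26G-RNA reads, the picture turned: 39 genes were then at least 2-fold higher and 8 lower, and the median was 0.18. With TMM scaling, which raised log2 ratios by 0.64, 34 were higher and 11 lower. The lower level is therefore one of the class against the library, and relative to other 26G-RNAs the typical gene was not lower.

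The ERGO-1 class holds 26G-RNAs of the female germ line and embryo, many of them from pseudogenes and recently duplicated genes. Its 59 genes summed to 1939 RPM in oxidized *eggd-1* and 3367 RPM in oxidized N2, a ratio of 0.576. Without oxidation they had 204 and 215 RPM in *eggd-1*, against 315.5 and 299 RPM in control, a ratio of 0.683, and both *eggd-1* libraries lay below both control libraries. Of the 40 measurable genes 0 were higher in oxidized *eggd-1* by 2-fold or more and 13 were lower, with a median log2 ratio of −0.70, and 33 of the 40 had ratios below 1. The share lower, 32.5%, was near the 26.5% of all measurable genes. All 32 genes of the class with at least 40 untreated counts had more RPM after oxidation than before in both genotypes, by a median of 9.57 times in *eggd-1* and 11.1 times in N2 over the untreated control. As a share of 26G-RNA reads the class was nearly even, at 32.1% in oxidized *eggd-1* and 33.8% in oxidized N2, and by that measure its median log2 ratio lay just above 0.

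Resistance was not confined to that class. In both *eggd-1* and N2, 152 of the 170 measurable genes had more RPM after oxidation than in either untreated library. These 152 genes were chosen from these values, with N2 set against the untreated control strain. The 112 of them outside the ERGO-1 class had 3969 RPM in oxidized *eggd-1* and 6507 RPM in oxidized N2, a ratio of 0.610, and their untreated ratio was 0.706. The remaining 7923 genes had 132 RPM in oxidized *eggd-1* and 77.3 RPM in oxidized N2, a ratio of 1.70, against 2.90 untreated. Only 18 of these 7923 genes were measurable after oxidation, 9 above and 9 below a ratio of 1, with a median log2 ratio of 0.13. The higher level of the remaining genes in oxidized *eggd-1* is thus one of their sum.

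Many of the sensitive 26G-RNAs belonged to the spermatogenic class. Of its genes with at least 40 untreated counts, 0 of 490 had more RPM after oxidation both in *eggd-1* and for N2 over the untreated control. The 1851 genes of the class had 1122 and 994 RPM in untreated *eggd-1*, against 274 and 297 RPM in untreated control, and took 51.1% and 48.2% of 26G-RNA reads in *eggd-1* and 19.9% and 21.2% in control. After oxidation 63.6 RPM was left in *eggd-1* and 29.6 RPM in N2, 1.05% and 0.298% of 26G-RNA reads. The class was thus still 2.15 times higher in oxidized *eggd-1*, less than the 3.70 times of the untreated libraries. Of its 11 measurable genes 6 were at least 2-fold higher, all of them also in the ALG-3/4 class, such as *spch-3*, a sperm chromatin protein gene, with 14 counts in oxidized *eggd-1* and 5.5 in oxidized N2, and T23F6.3 with 15 and 2 counts. All 6 had at most 15 counts and reached the minimum only through the *eggd-1* library. Among all 26G-RNA genes the 11 that were higher became 4 with 10 counts required in both libraries and 0 at a minimum of 50.

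**Figure D5:**
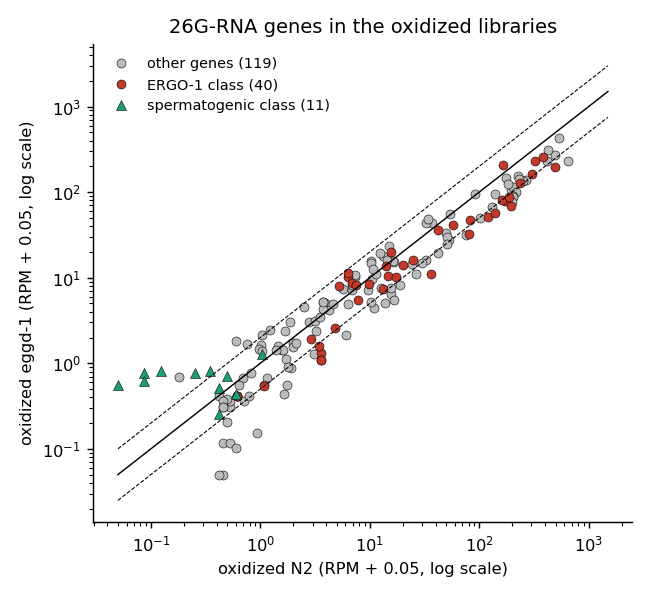
RPM of 26G-RNA genes in oxidized eggd-1 (vertical axis) and oxidized N2 (horizontal axis), with 0.05 RPM added and log scales. Points are the 170 genes with at least 10 counts in one library, coloured by the class in the files; the solid line marks equal values and the dashed lines a 2-fold difference. ERGO-1 class genes lie mostly below equality (33 of 40), and genes of the spermatogenic class lie at the low end, 6 of 11 above the upper dashed line.

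Individual 26G-RNA genes showed the same order. K02E2.11, which the files put in the ALG-3/4 class, had the most reads in oxidized *eggd-1*, with 434 RPM in oxidized *eggd-1* and 530 RPM in oxidized N2. It had 36.1 and 39.5 RPM in untreated *eggd-1*, against 44.1 and 52.5 RPM in control. Its RPM was thus higher after oxidation in *eggd-1* and for N2 over the untreated control, as in the ERGO-1 class. With it the ALG-3/4 class had 519 RPM in oxidized *eggd-1* and 596 RPM in oxidized N2, a ratio of 0.871, and without it 85.1 and 65.1 RPM, a ratio of 1.31. A single gene therefore set the direction of that class after oxidation.

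Other genes with many reads were linc-11, a noncoding RNA gene, with 307 RPM in oxidized *eggd-1* and 428 RPM in oxidized N2, and Y17D7C.3 with 271 and 489.5 RPM. The untreated log2 fold change of Y17D7C.3 was −0.62 (SE 0.14, edgeR, adjusted p = 0.00084). Among genes at least 2-fold lower, E01G4.7 (chromosome II, 13477471 to 13478929) had 195 RPM in oxidized *eggd-1* and 496 RPM in oxidized N2, a fold of 0.393 (interval 0.379 to 0.407). Its untreated values of 21.9 and 23.8 RPM in *eggd-1*, against 44.1 and 38.7 RPM in control, gave a log2 fold change of −0.86 (SE 0.14, edgeR, adjusted p = 0.00011). Y37E3.30 had 228 RPM in oxidized *eggd-1* and 642 RPM in oxidized N2 (fold 0.355), Y116F11A.1 had 68.8 and 195 RPM (0.352), and F39F10.4 had 10.9 and 36.1 RPM, the lowest fold among genes with at least 100 counts at 0.302. All 4 were lower in both untreated *eggd-1* libraries than in both control libraries. C44B11.6, of the ERGO-1 class, went against its class with 208 RPM in oxidized *eggd-1* and 166 RPM in oxidized N2, and its untreated log2 fold change was 0.74 (SE 0.14, edgeR, adjusted p = 0.00026).

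Of the 45 genes that were at least 2-fold lower in oxidized *eggd-1*, 30 could be tested without oxidation, and edgeR called 10 of them at least 2-fold lower in untreated *eggd-1* (33.3%), against 1.49% of the 875 genes tested. Of the 11 genes higher after oxidation 6 could be tested and all 6 were called higher in untreated *eggd-1*, but so were 80.8% of all genes tested.

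22G-RNAs are made by RNA-dependent RNA polymerases on target transcripts, carry no 3′ methyl group, and were nearly all removed: oxidized over untreated RPM was 0.0277 in *eggd-1* and 0.0268 for N2 over the untreated control. Among 3216 measurable genes 297 (9.24%) were higher in oxidized *eggd-1* by 4-fold or more and 315 (9.79%) were lower, with a median log2 ratio of −0.08. As a share of 22G-RNA reads these counts were 302 and 313. Between untreated replicates 0.207% of measurable genes in *eggd-1* and 0.182% in control were 4-fold apart, against 19.0% in the oxidized pair, whose counts were lower.

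By target class the remaining 22G-RNAs leaned different ways. Targets of CSR-1, an Argonaute that protects germline-expressed genes, summed to 2541 RPM in oxidized *eggd-1* and 1460 RPM in oxidized N2, a ratio of 1.74, and of 1468 measurable targets 191 were at least 4-fold higher and 56 lower. Targets of HRDE-1, the nuclear Argonaute of heritable silencing, had 3627 and 4242 RPM in oxidized *eggd-1* and N2, a ratio of 0.855. Of 766 genes 43 (5.61%) were at least 4-fold higher and 113 (14.8%) lower. The untreated ratios of these classes were 1.12 and 0.811. Both classes kept their untreated direction after oxidation. Targets of the Argonaute WAGO-4 (1.08 oxidized, 0.995 untreated) and oogenic genes (1.19 and 0.982) did not, and their 4 untreated pairs lay on both sides of 1. The other target classes compared stayed on the same side of 1.

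The largest ratio among genes with at least 100 counts was that of *arid-1*, with 1130 counts in oxidized *eggd-1* and 15 counts in oxidized N2, a fold of 102 (interval 63.4 to 188). Its untreated values were 1430 and 1412.5 RPM in *eggd-1*, against 41.8 and 40.7 RPM in control. *ubr-5*, an E3 ubiquitin ligase gene, had 704 counts in oxidized *eggd-1* and 26 in oxidized N2 (fold 37.0), and *gcn-1*, whose yeast counterpart acts in translational control, had 623 and 29 (29.5). *aco-2*, the gene of mitochondrial aconitase, had 152.5 and 4 counts, and K08D12.4 had 107 and 2. All 5 were also higher in untreated *eggd-1*, with log2 fold changes of 5.11, 3.14, 3.00, 1.30 and 5.62 in the order named (edgeR, adjusted p of at most 2.46e-16).

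At the other end *crtc-1*, a transcriptional coactivator gene, had no count in oxidized *eggd-1* and 121 counts in oxidized N2, at least 28.9-fold lower when the *eggd-1* library is set at its limit of 3 counts. *cdh-1*, a cadherin gene, had 4 counts in oxidized *eggd-1* and 337 in oxidized N2. The histone genes *his-47*, *his-57* and *his-65* each had 0.5 counts in oxidized *eggd-1* and 125 in oxidized N2, and since reads that match several places were divided among them, these near-identical copies are a single observation. The untreated log2 fold changes of *crtc-1* and *cdh-1* were −6.51 and −6.17 (edgeR, adjusted p of at most 9.46e-27). Genes with the most reads in oxidized *eggd-1* were WBTransposon00000216, F15D4.5, WBTransposon00000708, linc-29 and W03H9.2, with folds between 0.650 and 1.46.

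Without oxidation edgeR called 175 of the 315 genes that were at least 4-fold lower in oxidized *eggd-1* lower there too (55.6%, against 4.81% of all 11741 genes tested). Of 296 tested genes that were higher by 4-fold or more after oxidation it called 35 higher (11.8%, against 2.04%).

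The 22G-RNAs of genes that make, bind or protect these small RNAs were taken as a list of 21 genes. Of these 7 had at least 10 counts in one oxidized library, 0 were at least 4-fold higher and 1 was at least 4-fold lower in oxidized *eggd-1*, with a median log2 ratio of 0.18, beside 9.24% higher and 9.79% lower among all measurable genes, so the list did not stand apart. The lower one was *eggd-2*, the other LOTUS domain protein gene of germ granules, with 4 counts in oxidized *eggd-1* and 28 in oxidized N2 (interval of the ratio 0.0507 to 0.569). *prg-1* had 88 counts in *eggd-1* and 62 in N2, a fold of 1.97 (interval 1.41 to 2.78), and *parn-1*, which trims piRNA 3′ ends, had 298 and 485 counts, a fold of 0.857 (0.739 to 0.991). *dcr-1*, *snpc-4* and *ergo-1* had between 11 and 17 counts in *eggd-1* and between 9 and 21 in N2, too few to separate the libraries. *henn-1* itself had 6 and 8 counts. Without oxidation 5 of the 21 had higher and 8 had lower 22G-RNAs in *eggd-1* at any fold (edgeR, adjusted p below 0.05), beside 2549 higher and 4789 lower among 11741 genes. The 8 include *eggd-1* itself, the gene mutated in these animals, whose loss of 22G-RNAs follows from the genotype.

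Of the 109 measurable miRNA entries 26 (23.9%) were at least 2-fold higher in oxidized *eggd-1* and 5 (4.59%) lower, with a median log2 ratio of 0.71. As a share of each library's miRNA reads, 3 were higher and 10 lower and the median was 0.12, and with TMM scaling 1 was higher and 11 lower, so the difference was mostly one of the class as a whole. Entries sensitive to oxidation supplied most of these reads. miR-58a-3p, the entry with the most reads, had 504 RPM in oxidized *eggd-1* and 361 RPM in oxidized N2, where untreated libraries held 63176 and 58189 RPM in *eggd-1* and 55644 and 71825 RPM in control.

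A set of 13 entries, chosen by these values, had more RPM after oxidation than in either untreated library. For this *eggd-1* was set against untreated *eggd-1* and N2 against the untreated control strain. Together they had 634 RPM in oxidized *eggd-1* and 425 RPM in oxidized N2, 1.49 times as much, and 52.9 and 51.4 RPM in untreated *eggd-1*, against 34.5 and 35.2 RPM in control, 1.50 times as much. miR-240-5p led them with 357 RPM in oxidized *eggd-1* and 209 RPM in oxidized N2, a fold of 1.71 (interval 1.65 to 1.77). Its untreated values were 28.8 and 30.4 RPM in *eggd-1*, against 15.9 and 15.3 RPM in control. The gains were alike, at 12.1 times in *eggd-1* and 13.4 times for N2 over the untreated control. All piRNAs together gained 12.8 times in *eggd-1* and 14.5 times for N2 over the untreated control. Gains of the 13 entries were uneven, from 2.36 to 24.0 times in *eggd-1* and from 1.57 to 19.4 times for N2. A rise in RPM alone is therefore no measure of full protection, and miR-358-3p had the smallest gain in both.

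Members of the set differed among themselves. miR-84-3p, the star strand of a let-7 family hairpin, had 298.5 counts in oxidized *eggd-1* and 183 in oxidized N2, a fold of 2.27 (interval 1.88 to 2.74). miR-798-3p, whose hairpin lies in the larger piRNA cluster (14277312 to 14277387, minus strand), had 2264 and 1916 counts, a fold of 1.65. miR-78-3p, from the same cluster (15165647 to 15165742, plus strand), had 317 counts in oxidized *eggd-1* and 873 in oxidized N2, a fold of 0.506 (0.443 to 0.576), the lowest of the 13. miR-5549-3p on chromosome III was also lower, at 118.5 and 261 counts and a fold of 0.634. Hairpins of 4 of the 13 lie within the piRNA clusters as bounded above. The share of all miRNA hairpins in the clusters was not counted, so this number shows no enrichment.

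Reads on transposon consensus sequences, counted by a separate alignment, had 1131 RPM in oxidized *eggd-1* and 1588 RPM in oxidized N2, a ratio of 0.712. Of 64 entries 1 (1.56%) was higher by 2-fold or more and 17 (26.6%) were lower, with a median log2 ratio of −0.44. As a share of consensus reads, and also with TMM scaling, 2 were higher and 6 lower, and the median by share was 0.05. Vingi-1_CE, a non-LTR retrotransposon, had 7 counts in oxidized *eggd-1* and 179 in oxidized N2, and 3.61 and 4.39 RPM in untreated *eggd-1*, against 123 and 108 RPM in control. The retrotransposons CER12-1-LTR_CE (32 and 227 counts in oxidized *eggd-1* and N2), CER10-I_CE (153 and 673) and CER2-I_CE (556 and 2016) and the DNA transposon CEMUDR1 (268 and 1010) followed, and all had lower RPM in both untreated *eggd-1* libraries than in both control libraries. TC1, a DNA transposon and the entry with the most reads in oxidized *eggd-1*, had 1724 counts in oxidized *eggd-1* and 2870 in oxidized N2, a fold of 0.837.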

How the data were processed

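Whole-animal small RNA of 6 libraries was sequenced: oxidized *eggd-1* and oxidized N2 (1 each), untreated *eggd-1* and untreated control (2 each). The authors trimmed adapters with TrimGalore, collapsed reads, set structural RNA reads aside and aligned the rest with Bowtie without mismatches to WormBase WS279, whose assembly is WBcel235. Tool versions are not given in the sources used here. The deposited expected counts are reads divided by the number of places and overlapping features they match. The deposited RPM values are these counts scaled by the authors to genome-mapped reads. piRNA reads are sense and unique, and 22G-RNA reads antisense to the gene. Precursor miRNA entries were not used.

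Members of each class had at least 10 counts in one oxidized library. Ratios were (count + 0.5) over genome-mapped reads, with exact binomial 95% intervals and no test. These intervals, and the limit of 3 counts used where none was seen, reflect counting error alone. The 4 untreated libraries were tested with edgeR 4.0.16 (quasi-likelihood, counts rounded, filterByExpr with a minimum of 10, Benjamini-Hochberg adjustment over each class, in R 4.3.3). Calls needed an adjusted p below 0.05 and the fold of the class. The edgeR step was tested on simulated counts: of 200 features changed 6-fold, 183 of the piRNA, 188 of the 22G-RNA and 160 of the 26G-RNA ones were recovered. DESeq2 1.42.0, TMM scaling, other count minimums, the interval bound, a replicate block and leaving out libraries were alternatives. Those for transposon consensus sequences, and the ALG-3/4 sum without K02E2.11, were added after seeing the data. Coordinates come from an Ensembl annotation of WBcel235 and matched all 13994 piRNA loci and 337 of 353 miRNA entries (hairpins). scipy 1.17.1 and pandas 2.3.3 were used in Python 3.11.15.

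Named features were, per class, the 5 with the most reads in oxidized *eggd-1*, the 5 with the largest ratio in each direction among those past the fold with at least 100 counts, the 5 rare piRNA loci with the most reads in each oxidized library, and the 5 ERGO-1 and 5 ALG-3/4 class genes with the most 26G-RNA reads, besides *eggd-1* and 21 pathway genes. Other 26G-RNA genes, the resistant miRNA entries and the classes of resistant genes were picked after their values were seen. Members and lists were chosen with earlier results of these data known.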

Additional observations from a re-analysis of the deposited data

Results flagged for a closer look

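In 9 groups of small RNAs the summed ratio of the oxidized pair lay on the other side of 1 from all 4 pairs of untreated libraries. The difference between the oxidized and the untreated ratio was not tested, since each genotype has 1 oxidized library. For all 26G-RNAs the ratio was 0.607 oxidized and 1.53 untreated, and for 26G-RNAs of protein-coding genes 0.608 and 1.87. By target class of the 26G-RNA genes it was 0.481 and 1.85 for CSR-1, 0.522 and 1.33 for WAGO-1, 0.741 and 1.46 for WAGO-4, and 0.852 and 1.27 for HRDE-1. The ALG-3/4 class had 0.871 oxidized and 3.30 untreated, and its genes outside the spermatogenic class had 0.812 and 2.01. These groups share genes, so they are not separate observations. Reads from the spermatogenic class were 51.1% and 48.2% of 26G-RNA reads in untreated *eggd-1*, against 19.9% and 21.2% in untreated control, and 1.05% and 0.298% after oxidation in *eggd-1* and N2. The part of this composition in the reversed ratios was not tested. For piRNA loci of neither sex class the ratio was 0.954 oxidized and 1.08 untreated. Of the piRNA reads these loci took 52.4% in oxidized *eggd-1* and 55.2% in oxidized N2. Untreated, they took 53.1% and 53.2% in *eggd-1*, against 56.1% and 56.0% in control. By share of piRNA reads they were thus lower in *eggd-1* with and without oxidation, and only the RPM ratio reversed.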

How the results depend on the processing

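Counts are given as higher and lower in oxidized *eggd-1*. For piRNA loci (4104 and 143) TMM scaling gave 1842 and 735, the fold rule on the interval bound 2169 and 6, and the lower count alone was 37 with a minimum of 50 counts, 451 with none and 44 with 10 counts in both libraries. For rare loci (1176 and 104) TMM gave 724 and 239, a minimum of 50 gave 119 and 5, no minimum 2434 and 410, 10 counts in both 504 and 10, and the interval bound 329 and 2. Defining rare as under 10 counts in each untreated library gave 1924 higher, and as no untreated count 59 and 13. For 26G-RNA genes (11 and 45) the class share gave 39 and 8, TMM 34 and 11, no minimum 1148 and 586 and the interval bound 4 and 20, with 0 higher at a minimum of 50 and 4 higher at 10 counts in both. For 22G-RNA genes (297 and 315) a minimum of 50 gave 110 and 94, no minimum 1793 and 889, 10 counts in both 118 and 38 and the interval bound 98 and 54. For miRNAs (26 and 5) the class share gave 3 and 10, TMM 1 and 11, a minimum of 50 gave 16 and 0, no minimum 95 and 24 and the interval bound 3 and 0, with 0 lower at 10 counts in both. For transposon consensus sequences (1 and 17) the class share and TMM each gave 2 and 6, no minimum 17 and 32 and the interval bound 0 and 7, with 0 higher at a minimum of 50. The cause of these shifts was not tested beyond the scaling and the minimum themselves.

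The summed ratio by share of piRNA reads, without the 10 loci with the most reads and as a median over loci was 1.84, 1.96 and 2.41 for spermatogenic loci, 0.827, 0.863 and 0.927 for oogenic loci, and 0.951, 0.977 and 1.29 for loci of neither class, where the median reversed the direction. In place of 1420 untreated piRNA calls TMM gave 763 and DESeq2 386, and leaving out 1 untreated library gave between 1127 and 1317. For the piRNA loci lower after oxidation, a check added after seeing the data, the 1 untreated call became 4 with TMM and 3 with DESeq2. With the replicate number as a block 1403 calls were made, and 35 and 175 for the 22G-RNA genes, so the replicate block changed no count by over 1.5 times. Same-numbered untreated libraries did not deviate together (correlations of 0.03 for piRNAs, 0.05 for 22G-RNAs and −0.08 for 26G-RNAs). Of 77 named features 0 that were past the fold reversed. Some within the fold changed sign by class share, such as K02E2.11 (log2 ratio −0.29 to 0.43) and miR-58a-3p (0.48 to −0.10). Others past the fold fell inside it, such as E01G4.7 (−1.35 to −0.63) and miR-84-3p (1.18 to 0.60). The named piRNA loci and 22G-RNA genes past the fold stayed past it by class share.

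Depth limits the oxidized pair most for 22G-RNAs and for rare loci, whose median counts were 18 in *eggd-1* and 14 in N2. Without a second oxidized library per genotype, variation between preparations is not covered by any interval given.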
